A study of Mus musculus with 12 samples.

Results

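Interferon-stimulated genes are the genes that a cell switches on after it has sensed an interferon. The list described here was drawn up by gene symbol and known role, with no threshold on the values. It was chosen with earlier results of these data known, so shares of members set beside all genes are descriptions. The list holds 39 genes. Of these, 35 were measured by a probe set with a single gene symbol, among 12393 genes measured so in all. Ddx58 and Ifi44 had no such probe set, and the probe sets of Isg15 and Tgtp1 were each shared with another gene, so these 4 are given no value. The measured members were 5 transcription factors, 4 sensors of nucleic acid, 15 antiviral effectors, 5 regulators (Usp18, Trim21, Trim25, Parp14 and Ifi35) and 6 interferon-inducible GTPases.

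C26 cells, which derive from a colon carcinoma of the mouse, were grown under the skin of Balb/c mice aged 6 weeks, and 12 tumours, 4 per group, were each put on 1 array. On day 8 after inoculation, with tumours of about 50 mm3, mice received saline (PBS), free doxorubicin (Dox, an anthracycline that poisons topoisomerase) or CP-Dox (doxorubicin on a chimeric polypeptide carrier), and tumours were taken 48 h later. There was no group given the carrier without drug, the labels name no dose, and RNA of tumour cells and of host cells, both from mouse, reaches the same probes and cannot be told apart. All values are log2 RMA signals, in which a difference of 1 is 2-fold, and arrays are named by group and replicate number.

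Type I interferons (the interferon-α family and interferon-β) bind a receptor of IFNAR1 and IFNAR2, and the kinases JAK1 and TYK2 then activate STAT2, which joins IRF9 in the complex ISGF3, and this complex binds the interferon-stimulated response element, the ISRE. Interferon-γ, made mainly by T cells and natural killer cells, acts through IFNGR1 and IFNGR2 and through JAK1 and JAK2, and its signal ends on the GAS element. Many genes answer both, the immunity-related and guanylate-binding GTPases strongly to interferon-γ and the Ifit, Oas and Mx families strongly to type I interferon. Doxorubicin is known to be able to start a type I interferon response in tumour cells.

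The control sequences of the members are shown first because they link the list to the factors named above. RefSeq promoter windows (GRCm38.p6, from 250 bases before to 50 bases after the start site, 300 bases in all) were at hand for 30 of the 39 members, in 37 windows. The ISRE core was searched as GAAA, any 2 bases, GAAA on either strand, and stood in at least 1 window of 17 of the 30 members (56.7%), against 3.99% of all 27025 genes with a window. The GAS core, TTC, any 3 bases, GAA, which reads the same way on both strands, stood in a window of 11 of the 30 members (36.7%), against 9.55% of all genes. In 9 members an ISRE core began within 100 bases before the start site. The members were listed as interferon targets, so these shares describe the list and support nothing in the tumours, and the reference strain is not the strain of these mice.

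4 promoters are printed, those of the measured members with an ISRE core that had high mean signals on the arrays: Igtp at chr11:58199306-58199605 (+ strand), Irgm1 at chr11:48871371-48871670 (- strand), Oas1a at chr5:120907476-120907775 (- strand) and Gbp2 at chr3:142620413-142620712 (+ strand). Capitals mark the ISRE core. It begins 34 bases before the start site in Igtp and 59 bases before it in Gbp2, where the letters read on the opposite strand. In Irgm1 and Oas1a, 2 cores overlap, beginning 30 and 20 bases before the start site respectively.
Igtp: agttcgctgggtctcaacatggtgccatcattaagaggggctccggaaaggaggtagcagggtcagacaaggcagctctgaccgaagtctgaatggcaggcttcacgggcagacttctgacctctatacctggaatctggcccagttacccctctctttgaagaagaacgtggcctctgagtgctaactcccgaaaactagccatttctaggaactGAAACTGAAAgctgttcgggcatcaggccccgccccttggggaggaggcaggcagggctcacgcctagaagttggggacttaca
Irgm1: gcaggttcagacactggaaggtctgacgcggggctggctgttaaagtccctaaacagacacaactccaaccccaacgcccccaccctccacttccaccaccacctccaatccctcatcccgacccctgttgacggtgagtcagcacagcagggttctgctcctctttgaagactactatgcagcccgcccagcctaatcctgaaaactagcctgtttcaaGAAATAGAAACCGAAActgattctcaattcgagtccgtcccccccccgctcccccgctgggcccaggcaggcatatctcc
Oas1a: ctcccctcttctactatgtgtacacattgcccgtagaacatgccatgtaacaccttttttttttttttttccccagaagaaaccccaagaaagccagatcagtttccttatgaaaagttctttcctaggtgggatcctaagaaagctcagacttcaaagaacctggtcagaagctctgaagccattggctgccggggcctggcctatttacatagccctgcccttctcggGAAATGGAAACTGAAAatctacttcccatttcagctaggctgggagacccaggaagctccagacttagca
Gbp2: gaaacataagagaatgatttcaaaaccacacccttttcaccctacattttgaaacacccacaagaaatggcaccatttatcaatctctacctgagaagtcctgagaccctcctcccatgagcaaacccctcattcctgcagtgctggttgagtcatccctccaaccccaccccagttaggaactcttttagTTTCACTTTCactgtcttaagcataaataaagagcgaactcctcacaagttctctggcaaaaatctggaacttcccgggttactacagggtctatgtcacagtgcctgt

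In the series as a whole, 1 CP-Dox array stood apart from its group, which bears on every result given here. Over all genes, CP-Dox replicate 2 correlated with its group at 0.948 on average, where the 3 arrays beside it reached 0.971 to 0.977 and the PBS and Dox arrays 0.981 to 0.990. Some markers of the labelled cell type had low signals: Cdx1, Cdx2, Vil1 and Lgals4, defining genes of intestinal epithelium, stayed between 4.01 and 5.48 in all 12 arrays. Krt8, a keratin of simple epithelium, ran from 9.17 to 12.05 and was highest in CP-Dox replicate 2. The other markers of that list, Epcam, Krt18, Krt19, Krt20 and Cdh1, enter its mean and counts, given below. The 10 markers did not move together, so Krt8 does not stand for the list. With all arrays their log2 fold changes of CP-Dox against PBS ran from -0.95 to 1.25, 6 above 0 and 4 below. Without CP-Dox replicate 2 they ran from -1.97 to 1.53. Because the tissue was bulk tumour, fewer cells of a type and less RNA per cell cannot be told apart. Results are given with all 12 arrays and without CP-Dox replicate 2. Leaving out an array that lies far from its group shrinks the spread and favours calls, so the second set is no separate support.

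The 35 members moved as a block from array to array, and the block separated CP-Dox replicates 1, 3 and 4 from the rest. Averaged over the members and set against the PBS mean, CP-Dox replicates 1, 3 and 4 lay at 1.54, 1.48 and 1.38 and CP-Dox replicate 2 at -1.53. The PBS arrays lay at -0.25, 0.64, -0.30 and -0.10, and the Dox arrays at 0.47, -0.48, 0.13 and 0.73, in replicate order. 3 CP-Dox tumours were thus the highest of the 12 and 1 the lowest, with PBS and Dox overlapping between them. These patterns by array were noticed in the values and are given as descriptions.

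**Figure D1:**
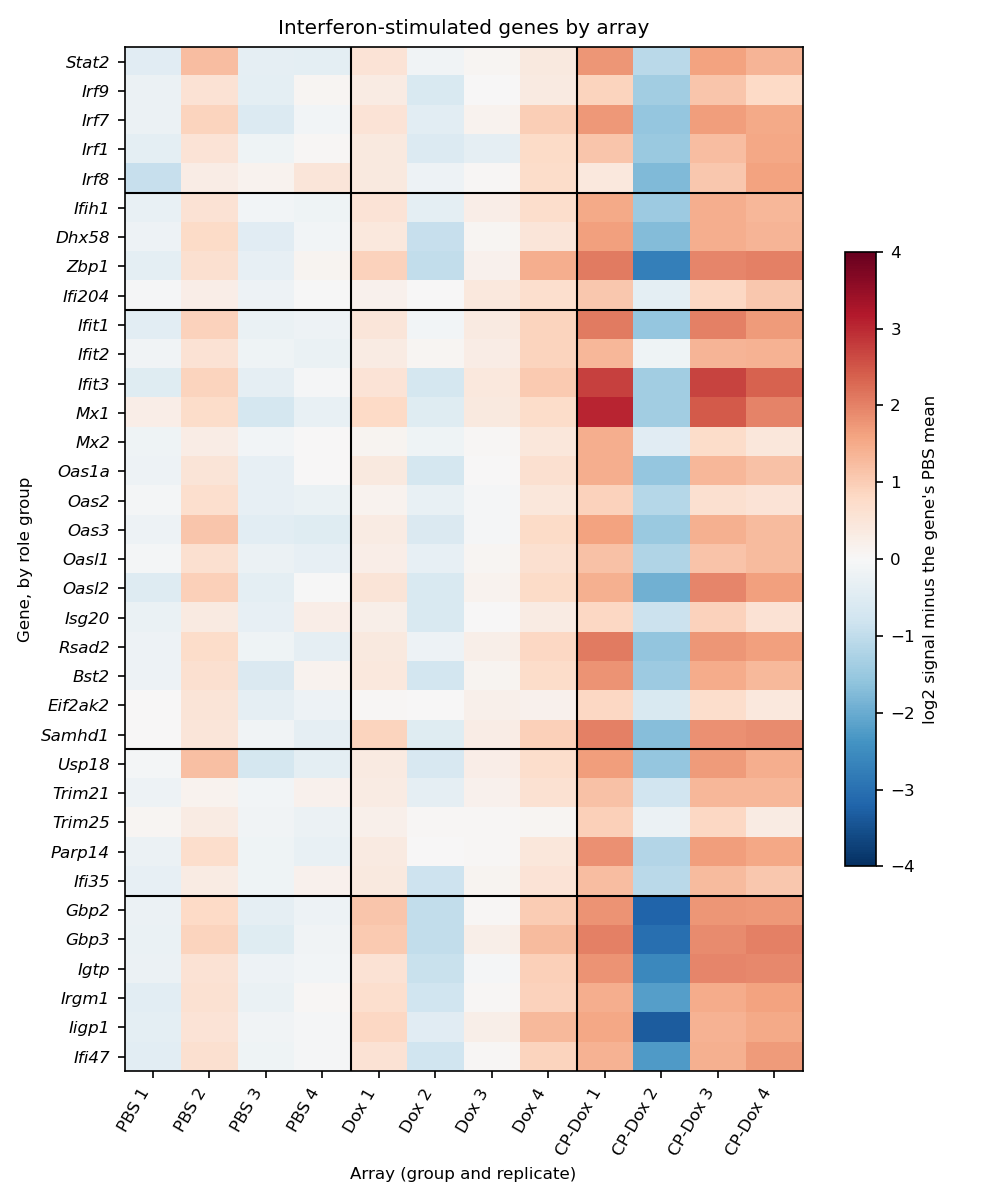
Log2 signal of each of the 35 measured members (rows, by role) minus its mean in the PBS arrays, for the 12 arrays (columns, by group), on a colour scale in log2 units. CP-Dox replicates 1, 3 and 4 are high throughout and CP-Dox replicate 2 is the lowest CP-Dox array for all 35 members.

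The pattern held member by member. CP-Dox replicates 1, 3 and 4 each exceeded every PBS and Dox array for 31 of the 35 members, against 7.85% of all genes. The 4 others were Irf8, Oas2, Eif2ak2 and Trim25. CP-Dox replicate 2 was the lowest CP-Dox array for 35 of 35 members, against 29.9% of all genes, and the lowest of all 12 arrays for 33, against 13.8%, the exceptions being Ifit2 and Trim25. In 11 members with other single-symbol probe sets, those 16 probe sets gave the same order: CP-Dox replicate 2 was the lowest CP-Dox array in 16, and the 3 other CP-Dox arrays exceeded all PBS and Dox arrays in 12.

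The smaller differences inside the other groups were shared as well. PBS replicate 2 was the highest PBS array for 33 of 35 members (all but Irf8 and Trim21), against 24.1% of all genes. Dox replicate 2 was the lowest Dox array for 35 of 35 members, against 32.4%, and Dox replicate 4 the highest for 30 of 35, against 29.0%. The members that departed from the last pattern were Stat2, Mx1, Eif2ak2, Trim25 and Gbp2. The median SD of a member was 0.46 in PBS, 0.57 in Dox and 1.48 in CP-Dox, against 0.18, 0.15 and 0.18 for all genes. With CP-Dox replicate 2 left out, the CP-Dox median fell to 0.14, near the 0.13 of all genes.

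The comparison of CP-Dox with PBS asks what the carrier-bound drug did to the tumours. With all 12 arrays the members' median log2 fold change was 0.70, from 0.24 (Oas2) to 1.61 (Ifit3), against -0.04 for all genes, and it was above 0 for 35 of 35 members, against 44.1% of all genes. No member passed the test: limma called 0 of 35, where 5.58% of all genes changed, and the unadjusted p was under 0.05 for 2, Ifi204 and Ifit2. The median standard error of a member was 0.62, against 0.13 over all genes.

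When CP-Dox replicate 2 was left out, 33 of 35 members rose against PBS, where 9.90% of all genes rose and 19.1% changed. The median log2 fold change of the members was then 1.49, from 0.64 to 2.61. Irf8 (1.03 ± 0.36, adjusted p = 0.0685) and Oas2 (0.70 ± 0.24, adjusted p = 0.0637) did not pass the limma test. The array that stands apart therefore decides the call for 33 members.

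The comparison of Dox with PBS asks what the free drug did. The members' median log2 fold change was 0.21, from 0.00 to 0.47, and 34 of 35 were above 0, against 51.4% of all genes. Limma called 0 of 35 members, and 0 had an unadjusted p under 0.05. Of all genes, 0% changed and 558 had an unadjusted p under 0.05. For Ifit2, the 95% interval of Dox against PBS ran from -0.36 to 1.15, and for Gbp3 from -1.80 to 2.56, which include changes beyond 2-fold. In the fit without CP-Dox replicate 2, which shares its estimate of the spread over the groups, the intervals were narrower, from -0.06 to 0.85 for Ifit2 and from -0.60 to 1.36 for Gbp3, the members' median standard error went from 0.62 to 0.29, and 0 of 35 members passed.

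The comparison of CP-Dox with Dox sets the carrier-bound drug against the free drug. As the labels name no dose, the carrier and the amount of drug cannot be told apart. The members' median was 0.53, and 34 of 35 were above 0, against 44.3% of all genes, with Iigp1 at -0.19 ± 0.92. Limma called 0 of 35 where 0.226% of all genes changed, and 0 members had an unadjusted p under 0.05. In the fit without CP-Dox replicate 2, 24 of 35 rose, where 4.77% of all genes rose and 9.28% changed, with a median of 1.31. The 11 that did not pass included Zbp1, Usp18, Gbp2, Gbp3 and Iigp1, whose adjusted p in limma lay between 0.0504 and 0.0816. The others were Irf8 (0.178), Oas2 (0.109), and Mx2, Oas3, Isg20 and Eif2ak2 (0.0520 to 0.0821). Both comparisons share the CP-Dox arrays, so the 24 members called in both are not counted as agreement.

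**Figure D2:**
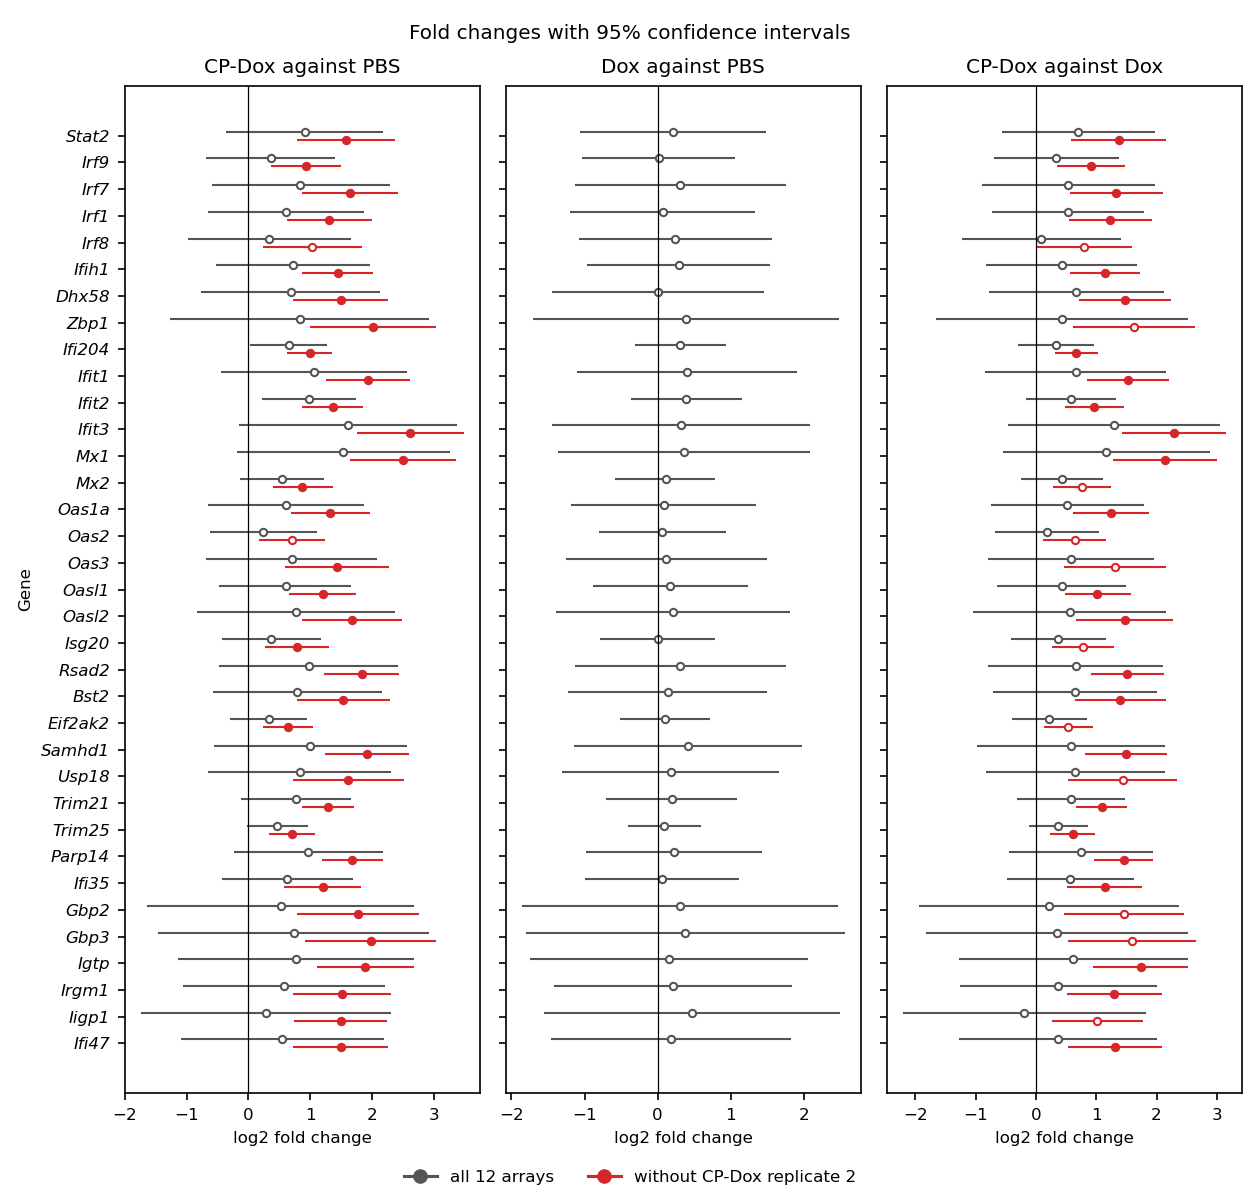
Log2 fold change of each of the 35 measured members with its 95% interval from the limma fit, for the 3 comparisons, with all 12 arrays (grey) and, for the 2 comparisons with CP-Dox, without CP-Dox replicate 2 (red). Filled points passed an adjusted p under 0.05, and with all arrays no interval leaves 0 out except those of Ifi204 and Ifit2 in CP-Dox against PBS.

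Among the transcription factors, Irf7, which amplifies the type I interferon response, was at 9.98, 11.09, 9.66 and 10.09 in PBS replicates 1 to 4, at 10.75, 9.78, 10.34 and 11.18 in Dox, and at 11.95, 8.66, 11.88 and 11.72 in CP-Dox. Irf1, induced directly by interferon-γ, was at 9.98, 10.91, 10.20 and 10.41 in PBS, 10.77, 9.82, 10.03 and 11.15 in Dox, and 11.48, 8.88, 11.62 and 11.93 in CP-Dox. Stat2, a subunit of ISGF3, was at 7.26, 8.95, 7.36 and 7.32 in PBS, 8.26, 7.57, 7.80 and 8.11 in Dox, and 9.48, 6.63, 9.34 and 9.09 in CP-Dox. For all 3 genes, the 3 high CP-Dox arrays lay above every PBS and Dox array and CP-Dox replicate 2 lay below every one. PBS replicate 2 approached the high arrays most closely for Stat2, with a gap of 0.14.

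With all arrays the log2 fold change of CP-Dox against PBS was 0.84 ± 0.66 for Irf7 (adjusted p = 0.452), 0.60 ± 0.58 for Irf1 (adjusted p = 0.543) and 0.91 ± 0.58 for Stat2 (adjusted p = 0.362). Without CP-Dox replicate 2, 4 of the 5 factors rose, Irf7 by 1.64 ± 0.35, Irf1 by 1.30 ± 0.31, Stat2 by 1.58 ± 0.36 and Irf9, the DNA-binding subunit of ISGF3, by 0.93 ± 0.26. Irf8, a factor of myeloid and B cells, was the 1 of 5 that did not pass. It was at 9.63, 7.46, 10.30 and 10.84 in CP-Dox and at 9.95 in Dox replicate 4, so its groups overlapped.

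Of the sensors, Zbp1, which binds Z-form nucleic acid and can start necroptosis, had the widest spread. It was at 9.74, 10.75, 9.79 and 10.22 in PBS, 11.05, 9.14, 10.30 and 11.58 in Dox, and 12.21, 7.39, 12.08 and 12.13 in CP-Dox. Ifi204, a DNA-binding protein of the PYHIN family, was at 10.16, 10.48, 9.99 and 10.20 in PBS, 10.37, 10.21, 10.62 and 10.89 in Dox, and 11.28, 9.83, 11.03 and 11.27 in CP-Dox. Both had the 3 high CP-Dox arrays above all PBS and Dox arrays, but CP-Dox replicate 2 lay 2.74 below the PBS mean for Zbp1 and 0.38 below it for Ifi204.

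The log2 fold change of CP-Dox against PBS with all arrays was 0.83 ± 0.95 for Zbp1 (adjusted p = 0.619) and 0.65 ± 0.29 for Ifi204 (adjusted p = 0.200, unadjusted p = 0.0443). With CP-Dox replicate 2 left out, all 4 measured sensors rose, Zbp1 by 2.02 ± 0.46 and Ifi204 by 0.99 ± 0.16. Ifih1 and Dhx58, which encode the RNA sensors MDA5 and LGP2, rose by 1.44 ± 0.26 and 1.49 ± 0.35.

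Of the antiviral effectors, Ifit3, of the family that binds viral RNA, had the highest log2 fold change of all members. It was at 9.15, 10.52, 9.30 and 9.61 in PBS, 10.20, 8.93, 10.06 and 10.68 in Dox, and 12.39, 8.25, 12.36 and 12.01 in CP-Dox. Its neighbour Ifit2 was at 9.77, 10.51, 9.74 and 9.65 in PBS, 10.25, 9.98, 10.20 and 10.82 in Dox, and 11.26, 9.73, 11.27 and 11.31 in CP-Dox. For Ifit3 the lowest of the 3 high CP-Dox arrays was 1.33 above the highest PBS or Dox array, and CP-Dox replicate 2 was below all 8. For Ifit2, CP-Dox replicate 2 lay among the PBS arrays, 0.18 below their mean.

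The fold change of CP-Dox against PBS was 1.61 ± 0.80 on the log2 scale for Ifit3 (adjusted p = 0.249) and 0.98 ± 0.34 for Ifit2 (adjusted p = 0.121). When CP-Dox replicate 2 was left out they rose by 2.61 ± 0.39 and 1.36 ± 0.22, which is 6.11-fold and 2.57-fold. Against Dox, Ifit3 was then higher by 2.29 ± 0.39 (adjusted p = 0.011) and Ifit2 by 0.97 ± 0.22 (adjusted p = 0.0266).

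Oas1a makes the oligoadenylates that activate RNase L, and Samhd1 breaks down nucleotides used for DNA synthesis. Oas1a was at 10.80, 11.53, 10.67 and 11.02 in PBS, 11.39, 10.30, 11.02 and 11.64 in Dox, and 12.47, 9.46, 12.33 and 12.19 in CP-Dox. Samhd1 was at 10.58, 11.05, 10.41 and 10.21 in PBS, 11.45, 10.09, 10.85 and 11.53 in Dox, and 12.57, 8.85, 12.40 and 12.45 in CP-Dox. Both split the CP-Dox tumours as Ifit3 did, 3 above and 1 below all other arrays. CP-Dox against PBS gave 0.61 ± 0.58 (adjusted p = 0.542) for Oas1a and 1.0 ± 0.71 (adjusted p = 0.406) for Samhd1. In the fit without CP-Dox replicate 2, both rose, by 1.32 ± 0.29 and 1.91 ± 0.31.

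Without that array 14 of the 15 effectors rose, Oas2 being the other. The log2 fold changes ran from 0.64 for Eif2ak2, the RNA-activated kinase PKR, to 2.61 for Ifit3. Ifit1 rose by 1.93 ± 0.31, Rsad2 (viperin) by 1.83 ± 0.28 and Bst2 (tetherin, which holds virus at the cell surface) by 1.53 ± 0.34. Mx1, singled out after its values were seen, is defective in most inbred laboratory mice and may be read only as a transcript: it was between 5.79 and 7.29 in PBS and Dox and at 9.53, 5.09, 8.95 and 8.47 in CP-Dox. It rose by 2.50 ± 0.39 without CP-Dox replicate 2.

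Usp18 removes ISG15 from proteins and restrains the type I receptor. It was at 9.78, 11.04, 9.14 and 9.45 in PBS, 10.20, 9.22, 10.13 and 10.56 in Dox, and 11.51, 8.31, 11.57 and 11.32 in CP-Dox. Parp14, an ADP-ribosyltransferase, was at 8.53, 9.47, 8.61 and 8.46 in PBS, 9.13, 8.78, 8.81 and 9.22 in Dox, and 10.58, 7.61, 10.45 and 10.30 in CP-Dox. For both, the 3 high CP-Dox arrays lay above all PBS and Dox arrays, by 0.28 for Usp18 and by 0.83 for Parp14. Trim25, the ubiquitin ligase that acts with the sensor RIG-I, was at 10.20, 10.46, 9.98 and 9.88 in PBS, 10.33, 10.17, 10.18 and 10.22 in Dox, and 11.09, 9.89, 10.97 and 10.45 in CP-Dox. Its groups overlapped, since CP-Dox replicate 4 lay below PBS replicate 2.

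CP-Dox against PBS gave 0.83 ± 0.68 for Usp18 (adjusted p = 0.477), 0.97 ± 0.55 for Parp14 (adjusted p = 0.304) and 0.46 ± 0.23 for Trim25 (adjusted p = 0.239). Without CP-Dox replicate 2, 5 of the 5 regulators rose, Parp14 by 1.68 ± 0.22 with the lowest adjusted p of any member (0.00127). Trim21, an antibody receptor in the cytosol, rose by 1.28 ± 0.19, Usp18 by 1.61 ± 0.41 and Trim25 by 0.70 ± 0.17. Ifi35 rose by 1.20 ± 0.28.

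The interferon-inducible GTPases, which act on the vacuoles of intracellular microbes, had a wider gap between the CP-Dox arrays than the other role groups. Their mean relative to PBS reached 1.66, 1.65 and 1.75 in the 3 high CP-Dox arrays and stood at -2.77 in the low one. For the antiviral effectors the same means were 1.65, 1.5 and 1.31, and -1.23. The 3 high arrays were thus similar for both groups and the low array was not, a contrast that was not tested.

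Igtp, an immunity-related GTPase, was at 10.98, 11.77, 10.99 and 11.09 in PBS, 11.77, 10.33, 11.17 and 12.16 in Dox, and 13.01, 8.63, 13.15 and 13.14 in CP-Dox. Iigp1 was at 11.66, 12.59, 11.90 and 12 in PBS, 12.85, 11.59, 12.27 and 13.32 in Dox, and 13.59, 8.70, 13.44 and 13.55 in CP-Dox. Ifi47 was at 11.15, 12.21, 11.40 and 11.53 in PBS, 12.16, 10.79, 11.61 and 12.45 in Dox, and 12.95, 9.30, 12.99 and 13.26 in CP-Dox. CP-Dox replicate 2 was the lowest of the 12 arrays for each, 3.34 below the PBS mean for Iigp1. For that gene Dox replicate 4 came within 0.12 of the high CP-Dox arrays.

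With all arrays CP-Dox against PBS gave 0.77 ± 0.87 for Igtp (adjusted p = 0.608), 0.55 ± 0.75 for Ifi47 (adjusted p = 0.678) and 0.28 ± 0.92 for Iigp1 (adjusted p = 0.872). With CP-Dox replicate 2 left out, 6 of the 6 GTPases rose, Igtp by 1.89 ± 0.36, Gbp3 by 1.98 ± 0.48, Gbp2 by 1.77 ± 0.45, Irgm1 by 1.51 ± 0.36, Ifi47 by 1.49 ± 0.35 and Iigp1 by 1.49 ± 0.34. Gbp2 and Gbp3, guanylate-binding proteins, held the 3 high arrays within an SD of 0.02 and 0.07.

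**Figure D3:**
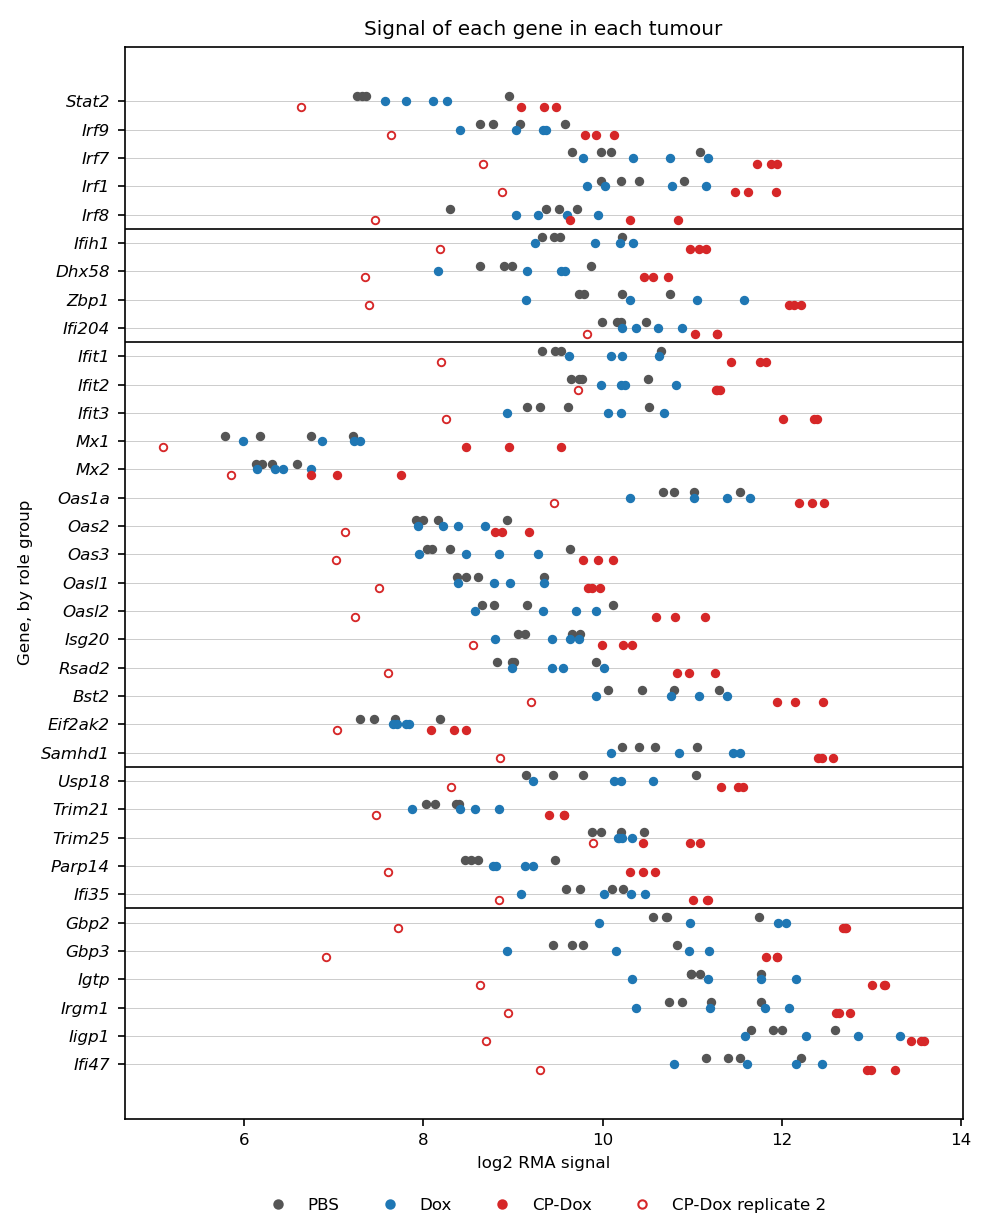
Log2 RMA signal (x axis) of each of the 35 measured members (rows, by role) in each of the 12 tumours, 1 point per tumour, with CP-Dox replicate 2 as an open point. In CP-Dox, 3 points lie together at the high end of nearly every row and the open point lies lowest in 33 rows.

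The ligands differed in kind. Ifnb1 was between 4.80 and 5.09 in all 12 arrays, and Ifna1, Ifna2 and Ifna4 between 4.43 and 5.88, at means that between 8.3% and 24.9% of genes lie below. None of these 4 passed limma's test in any comparison, and a flat signal this low may be unable to show a change. Ifng, the interferon of T cells and natural killer cells, was at 4.63, 6.07, 5.28 and 5.43 in PBS, 5.58, 4.79, 5.16 and 7.60 in Dox, and 7.43, 3.90, 7.41 and 9.25 in CP-Dox. Its lowest and highest arrays were CP-Dox replicates 2 and 4, and Dox replicate 4 lay above CP-Dox replicates 1 and 3. Against PBS, CP-Dox gave 1.65 ± 0.95 (adjusted p = 0.312), and without CP-Dox replicate 2 Ifng rose by 2.68 ± 0.65 (adjusted p = 0.0167), 1 of the 5 measured ligands to do so.

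Receptors and kinases moved little. Ifnar1 ran from 8.39 to 8.76 and Ifngr1 from 8.75 to 10.02 over the 12 arrays, with log2 fold changes of CP-Dox against PBS of 0.11 ± 0.09 (adjusted p = 0.483) and 0.21 ± 0.29 (adjusted p = 0.695). With all arrays 0 of the 8 measured passed, and the lowest p belonged to Jak2 (0.53 ± 0.18, adjusted p = 0.108) and Tyk2 (0.38 ± 0.13, adjusted p = 0.111). When CP-Dox replicate 2 was left out, Jak2, Tyk2 and Ifnar2 rose, 3 of 8. Of 10 measured upstream adaptors and kinases, 0 passed with all arrays and 5 rose without that array, among them Ikbke (1.28 ± 0.23) and Myd88 (0.64 ± 0.13). Beside these counts and those below, 5.58% of all genes changed with all arrays and 9.90% rose without that array.

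Of 7 measured STATs and negative regulators, Stat3 was the 1 gene that rose with all 12 arrays, by 0.68 ± 0.18 (adjusted p = 0.0469, CP-Dox against PBS). It was at 11.45, 10.77, 11.09 and 11.03 in CP-Dox and between 9.99 and 10.70 in PBS and Dox, so its groups did not overlap and CP-Dox replicate 2 kept to its group. The call was not stable: leaving out 1 array ended it in 10 of 12 cases (all but PBS replicate 2 and CP-Dox replicate 2), with adjusted p from 0.0119 to 0.130, and the mean of the gene's probe sets gave 0.35 ± 0.14 (adjusted p = 0.159). The call also ended with the replicate block (adjusted p = 0.0538), in a fit of the 2 groups alone (adjusted p = 0.123) and with the most variable probe set (adjusted p = 0.0517). Pias1, a SUMO ligase, gave 0.42 ± 0.14 (adjusted p = 0.0946). In the fit without CP-Dox replicate 2, 5 of 7 rose, including Socs1, the feedback inhibitor of the JAKs, by 1.29 ± 0.34.

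Chemokines and antigen-processing genes under interferon-γ split as the members did, with means relative to PBS of 1.28, 1.35 and 1.57 in the 3 high CP-Dox arrays and -1.73 in CP-Dox replicate 2. Cxcl9, which draws T cells, was at 12.67, 7.62, 13.08 and 13.19 in CP-Dox and between 10.15 and 12.39 in PBS and Dox. Cxcl10 was at 11.79, 7.85, 11.88 and 12.86 in CP-Dox and between 9.96 and 11.82 in the others, so it overlapped. With all arrays 0 of 12 passed, the lowest p being that of Ido1 (1.96 ± 0.61, adjusted p = 0.0876) and Cd274 (1.52 ± 0.75, adjusted p = 0.243). Without CP-Dox replicate 2, 9 of 12 rose, Ido1, which degrades tryptophan, by 2.74 ± 0.27 and Cd274, which encodes PD-L1, by 2.44 ± 0.39. Cxcl10, B2m and Ciita did not pass.

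Markers of other cells differed between the same arrays, and their part in the result was not tested. Their counts are for CP-Dox against PBS, where 291 of all 12393 genes rose and 400 fell with all arrays. Without CP-Dox replicate 2, 1227 of all genes rose and 1136 fell. The mean of 12 T and natural killer cell markers relative to PBS reached 0.82, 0.97 and 1.36 in the 3 high CP-Dox arrays, stood at -1.55 in CP-Dox replicate 2, and ran from -0.60 to 0.56 in PBS and from -0.38 to 0.84 in Dox. The cytotoxic genes Gzmb and Prf1 were lowest in CP-Dox replicate 2, at 7.47 and 5.57. With all arrays 0 of the 12 passed, and without CP-Dox replicate 2 4 rose. Neutrophil markers (6 genes) had means of 1.30, 0.27, 1.20 and 1.64 in CP-Dox, again lowest in replicate 2, though there still above all PBS arrays, and of 1.23 in Dox replicate 4, the highest Dox array. Of these 6, 2 rose in limma with all arrays, S100a8 (2.09 ± 0.50, adjusted p = 0.0354) and Lcn2 (2.40 ± 0.63, adjusted p = 0.0483). The list went both ways, with log2 fold changes of CP-Dox against PBS from -0.37 to 2.40, 4 above 0 and 2 below. Without CP-Dox replicate 2, 4 rose.

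Macrophage markers (11 genes) were at -0.58 in CP-Dox replicate 2 and at 0.16, 0.43 and 0.31 in the other CP-Dox arrays, within the range of Dox (0.12 to 0.46), and 0 passed with all arrays. When CP-Dox replicate 2 was left out, 4 rose and 1, Cd163, fell. Proliferation markers (12 genes) were lowest in CP-Dox replicate 2, at -1.82, but in CP-Dox replicates 1, 3 and 4, at -0.37, -0.44 and -0.29, they lay below every PBS array, where the members lay above. With all arrays 2 of the 12 fell, Ccna2 (-1.08 ± 0.21, adjusted p = 0.0173) and Pcna (-0.65 ± 0.15, adjusted p = 0.0346), and without CP-Dox replicate 2, 5 fell. Endothelial markers (8 genes) did not split the CP-Dox arrays: their means were 0.64, 0.59, 0.74 and 0.71, against -0.32 to 0.17 in PBS and -0.02 to 0.37 in Dox. Of these 8, 3 rose with all arrays, Plvap (1.23 ± 0.16, adjusted p = 0.00376), Pecam1 and Emcn, and 3 without CP-Dox replicate 2. Fibroblast markers (8 genes) ran from 0.07 to 0.33 in CP-Dox and from -0.34 to 0.24 in PBS and Dox, and 2, Dcn and Thy1, rose with all arrays. Epithelial markers (10 genes) were at 0.17, 0.64, 0.13 and -0.36 in CP-Dox and ran from -0.22 to 0.33 in PBS and Dox. Of these 10, 1 rose in CP-Dox against PBS with all arrays. Without CP-Dox replicate 2, 1 rose and 1 fell.

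Keratinocyte markers (9 genes) were at 2.87, 0.07, 4.31 and -0.18 relative to the PBS mean in CP-Dox replicates 1 to 4. The members' means in those arrays were 1.54, -1.53, 1.48 and 1.38. Skeletal muscle markers (8 genes) were at -3.09, -3.10, 4.04 and 2.15 in PBS replicates 1 to 4. They were at -3.06, 2.02, -3.06 and -3 in Dox and at -0.87, 0.49, 1.55 and 2.52 in CP-Dox. Dox replicate 2, the highest Dox array for muscle, was the lowest for the members. PBS replicate 2, the highest PBS array for the members at 0.64, was at -3.10 for muscle. PBS replicate 1 was about as low for muscle, at -3.09, but at -0.25 for the members. In CP-Dox, replicate 2, the lowest for the members, was neither highest nor lowest for muscle. A relation between the 2 lists was not tested.

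**Figure D4:**
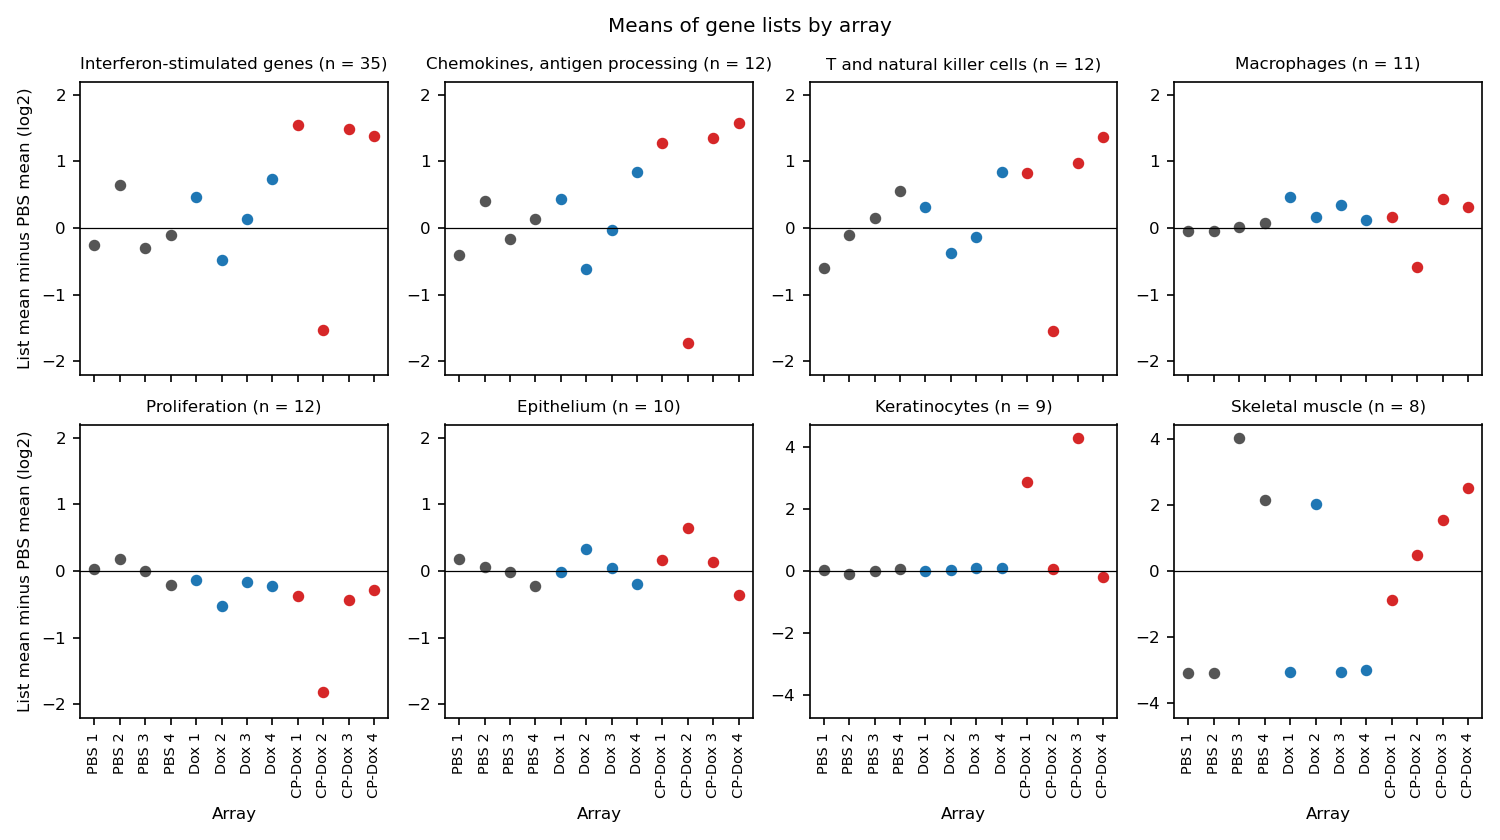
Mean log2 signal of 8 gene lists relative to their PBS mean (y axis, in log2 units, with its own scale for keratinocytes and skeletal muscle), 1 point per array and n genes per list. The members, the interferon-γ targets, T and natural killer cell markers, macrophage markers and proliferation markers are lowest in CP-Dox replicate 2, whereas epithelial markers are highest there, at 0.64.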

How the data were processed

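RNA from 12 tumours was measured on Affymetrix mouse expression arrays, 1 per mouse, with groups and replicate numbers taken from the sample titles. The values are log2 signals that the authors made with RMA, and Partek is also named, per the submitters' processing notes, their versions and order not given in the sources used here. RMA includes quantile normalization, which can hide a shift shared by most genes. No further normalization was applied. Of 22690 probe sets, 64 controls, 691 with several symbols and 1555 without a symbol were left out, and the probe set with the highest mean stood for a gene.

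1 model with a mean per group was fitted to 12393 genes on all 12 arrays with limma 3.58.1 (lmFit, eBayes) under R 4.3.3. Two-sided p values were adjusted by Benjamini and Hochberg over all genes, and rose, fell and changed mean an adjusted p under 0.05. Errors are standard errors of the fit, with n = 4 tumours per group, and precision is limited by the number of arrays and, for the members, by CP-Dox replicate 2 (median standard error in CP-Dox against PBS 0.62 with it, 0.31 without). The fit was tested on simulated data. The members and lists were chosen with earlier results of these data known. Values by array are given, by rule, for the 2 members of each role group with the highest mean, the member with the largest fold change and the 3 with the lowest p per comparison; other members were named after their values were seen. Alternatives covered normalization, probe sets, variance, array weights, a replicate block and each array left out. The sample titles do not say whether replicate numbers pair the arrays, and they were not taken as pairs. Python 3.11.15 and matplotlib 3.10.9 drew the figures.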

Additional observations from a re-analysis of the deposited data

Results flagged for a closer look

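In 25 of 63 groups of 4 arrays that were examined, 1 array lay so far from the nearest other that the gap divided by the group's range passed Dixon's 95% critical value, where chance gives about 1 in 20. In CP-Dox the array was always replicate 2, as the lowest. Its signals were 8.88 for Irf1, 8.66 for Irf7, 6.63 for Stat2, 7.39 for Zbp1, 9.83 for Ifi204, 9.46 for Oas1a and 8.85 for Samhd1. They were 8.25 for Ifit3, 9.73 for Ifit2, 8.31 for Usp18, 7.61 for Parp14, 8.70 for Iigp1, 9.30 for Ifi47 and 8.63 for Igtp. The mean of the members in that array, relative to PBS, was -1.53, and the means by role were -1.46 for transcription factors, -1.58 for sensors, -1.23 for antiviral effectors, -0.96 for regulators and -2.77 for GTPases. In PBS the array was always replicate 2, as the highest, at 8.95 for Stat2, 9.47 for Parp14, 11.77 for Igtp and 10.51 for Ifit2, and at 0.67 for the mean of the antiviral effectors. These groups share the same arrays and are not independent.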

How the results depend on the processing

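With all 12 arrays, limma called 0 members in each comparison, and this held under a further quantile normalization, under array medians set equal, without the dimmest 40% of genes, with other choices of probe set, another variance model, a fit of the compared groups alone and a stricter threshold. Array weights, which gave CP-Dox replicate 2 a weight of 0.232, called 29 of 35 members in CP-Dox against PBS and 15 in CP-Dox against Dox. Leaving out 1 array at a time gave 0 to 33 members called in CP-Dox against PBS, 0 to 24 in CP-Dox against Dox and 0 in Dox against PBS, with medians of 0.42 to 1.49, 0.24 to 1.31 and 0.05 to 0.43. The upper ends of the CP-Dox ranges come from leaving out CP-Dox replicate 2. Over all genes, array weights raised the calls from 691 to 2665 and from 28 to 1960. Apart from array weights, calls over all genes ran from 198 (only the 2 groups compared) to 2363 (without CP-Dox replicate 2) in CP-Dox against PBS, from 0 to 1150 under the same settings in CP-Dox against Dox, and from 0 to 2 in Dox against PBS. With the replicate block, 0 members were called and the medians were 0.70, 0.21 and 0.53, while calls over all genes went from 691 to 995 in CP-Dox against PBS and from 28 to 8 in CP-Dox against Dox. Correlations of deviations between same-numbered arrays ran from -0.31 to 0.51, the highest between Dox and CP-Dox replicate 2. They do not settle whether the numbers pair the arrays, and the numbers were not taken as pairs. Replicate 2 was the lowest array for 35 of 35 members in both Dox and CP-Dox, but the highest for 33 in PBS. Of the 15 members with values by array given by rule, none reversed its direction among called values. The other members were not checked for this. In CP-Dox against PBS the median standard error of a member was 0.62, close to the members' median of 0.70, and without CP-Dox replicate 2 it was 0.31.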
